A study of Mus musculus with 18 samples.

Results

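The Iroquois homeobox genes Irx1, Irx2, Irx3, Irx4, Irx5 and Irx6 were followed in the dental epithelium of mouse molars whose labels give both Hmgn1 and Hmgn2, genes of nucleosome-binding proteins, as knocked out. They were chosen by symbol, as all transcripts in the deposited tables that carry one of the 6 names, and all 6 genes were found among 32532 genes at embryonic day 17 (E17, 16 of 110159 transcripts) and among 19450 genes at postnatal day 5 (P5, 8 of 38288 transcripts). The groups were double knockout (DKO, Hmgn1-/-; Hmgn2-/-) and wild-type (WT) molar epithelium at E17 and the same genotypes at P5, with 3 libraries in each group. The strain, the sex, the design of the Hmgn alleles and any pooling of animals are not stated in the labels. Since separate animals are not stated either, the p-values refer to the spread between libraries, which may be only technical. The epithelium had been freed from the underlying mesenchyme with the protease dispase, and total RNA depleted of ribosomal RNA was sequenced. The intermediate stage P0, whose table used here holds no Irx gene, was not analysed here.

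Iroquois proteins are transcription factors of the TALE class of homeodomain proteins, which have an extension of 3 amino acids in the homeodomain, and they carry a further conserved motif, the Iro box. In mammals the genes lie in a pair of clusters that arose by duplication: IrxA holds Irx1, Irx2 and Irx4, and IrxB holds Irx3, Irx5 and Irx6, so that Irx1 pairs with Irx3, Irx2 with Irx5 and Irx4 with Irx6 as the closest relatives. They pattern territories of the neural plate, heart, limb and lung, and in the mouse molar Irx1 is known from the outer layers of the enamel organ, the epithelial structure whose innermost layer becomes the enamel-secreting ameloblasts.

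On the mm10 assembly, IrxA spans 1312 kb of chromosome 13, with Irx1 at chr13:71957921-71963723 on the minus strand, Irx2 at chr13:72628820-72634198 on the plus strand and Irx4 at chr13:73260479-73269608 on the plus strand. IrxB spans 882.4 kb of chromosome 8, with Irx3 at chr8:91798525-91802067 on the minus strand, Irx5 at chr8:92357625-92376286 and Irx6 at chr8:92674288-92680956, both on the plus strand (GENCODE M21 annotation). Neighbouring members are separated by 665 and 626 kb in IrxA and by 556 and 298 kb in IrxB. RefSeq promoter windows of GRCm38.p6 (250 bases before to 50 after the annotated start) were matched for 3 of the 6 genes, Irx2, Irx3 and Irx4. The start used for the Irx3 window lies 413 bases downstream of the GENCODE start, so that window falls wholly inside the gene and is not printed or described. Those of Irx2 and Irx4, whose starts lie 0 and 18 bases downstream of the GENCODE starts, are shown because both genes have a CpG-rich start in the same cluster but differ in RNA level. Each is written 5′ to 3′ on the strand of its gene, and capitals mark CpG dinucleotides.
Irx2, chr13:72628570-72628869, plus strand: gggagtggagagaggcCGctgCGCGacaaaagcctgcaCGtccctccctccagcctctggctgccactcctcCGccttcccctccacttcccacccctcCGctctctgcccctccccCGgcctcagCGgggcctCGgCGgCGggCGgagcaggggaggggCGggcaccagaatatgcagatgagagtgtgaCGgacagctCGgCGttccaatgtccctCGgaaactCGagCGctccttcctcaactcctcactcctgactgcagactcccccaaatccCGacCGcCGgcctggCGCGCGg
Irx4, chr13:73260247-73260546, plus strand: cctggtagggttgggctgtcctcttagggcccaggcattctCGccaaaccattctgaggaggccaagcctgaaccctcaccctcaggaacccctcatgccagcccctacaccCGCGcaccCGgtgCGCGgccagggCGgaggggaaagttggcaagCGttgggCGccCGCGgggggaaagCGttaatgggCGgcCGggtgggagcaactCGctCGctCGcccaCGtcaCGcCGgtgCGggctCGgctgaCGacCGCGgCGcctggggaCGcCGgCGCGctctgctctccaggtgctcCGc
The Irx4 window holds 31 CpG and 70.7% G and C and the Irx2 window 25 CpG and 69%, beside medians of 7 CpG and 52.7% over 32851 promoter windows of the same length, and 89.4% and 81.6% of those windows hold fewer CpG than Irx4 and Irx2. The letters TATAAA, the core promoter element bound by TBP, and ACANNTGT, the core reported for Iroquois proteins of Drosophila, were found on neither strand of either window, while 13.6% and 7.38% of all windows hold them on either strand. CCAAT was found once, in Irx2 on the strand shown, and in 37.4% of all windows on either strand. A match of letters is a description of the window and not a binding site.

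Values are RPKM (reads scaled to transcript length and library size), summed over the transcripts of a gene. Fold changes are log2 of DKO over WT on the log2(RPKM + 1) scale, which understates changes of low genes, with the standard error and the Benjamini-Hochberg adjusted p of limma over all genes tested at the stage. A gene was tested at a stage if 3 or more of its 6 libraries reached 1 RPKM. The libraries had 65953495 to 99967427 alignments at E17 and 39209676 to 72660832 at P5, and 1 read on a transcript of 1 kb was worth 0.0241 to 0.0359 RPKM at E17 and 0.0324 to 0.0597 at P5. Hmgn2, a targeted gene, stood at 0.839 to 0.975 RPKM in the DKO libraries and 320.0 to 354 in the WT libraries at E17, and at 5.44 to 10.4 and 166 to 183 RPKM at P5. RNA of Hmgn1, the other targeted gene, remained in the DKO libraries, at 86.2 to 92.9 RPKM in DKO and 123 to 133 in WT at E17 and at 69.8 to 72.6 in DKO and 179 to 189.6 in WT at P5. The bulk of genes moved with genotype: the median log2 fold change of all genes tested was 0.25 at E17 and -0.25 at P5, and it was 0.00 and -0.06 after each library was scaled to a common upper quartile. Accordingly, "rose" and "fell" are used of genes that met an adjusted p under 0.05 with 1 sign both as deposited and with the common upper quartile, and the value with the common quartile is called scaled.

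At E17, both expressed members of IrxA rose in the DKO epithelium, Irx1 to 2.13 times and Irx2 to 1.85 times the WT mean. The expressed members of IrxB, Irx5 and Irx3, had higher means in the DKO by 1.49 and 1.28 times, and neither passed the test after scaling. Irx4 and Irx6 had at most 0.188 and 0.115 RPKM in any library. Of the 4 members tested, 4 passed as deposited in the higher direction, as did 56.3% of the 13728 genes tested, and 2 passed in both scalings, as did 6.61%. The DKO libraries all lay above the WT libraries for 3 of the 4, as for 60.9% of genes.

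**Figure D1:**
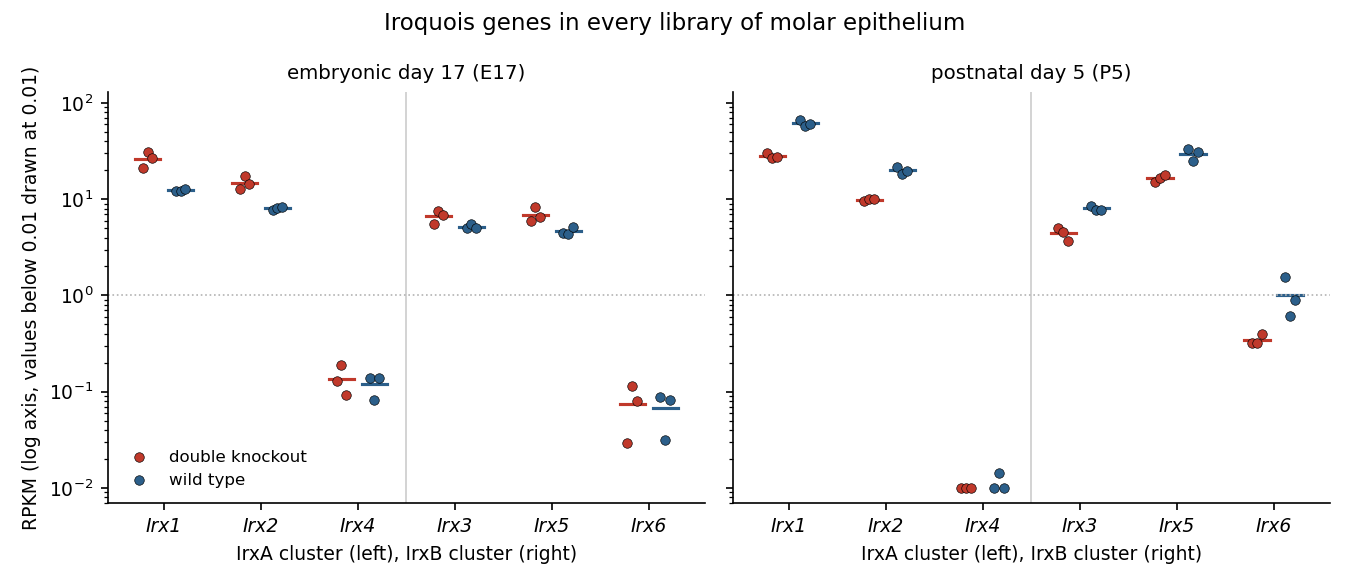
RPKM of the 6 Iroquois genes in every library at E17 (left) and P5 (right) on a log axis, with DKO points and means (bars) left of WT; the dotted line marks 1 RPKM. Irx1 and Irx2 of the DKO lie above WT at E17 and below it at P5, and Irx4 has at most 0.188 RPKM in any of the 12 libraries.

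Irx1 stood at 20.95, 31.1 and 26.7 RPKM in the 3 DKO libraries at E17, against 12.1, 12.3 and 12.7 RPKM in the 3 WT libraries. The lowest DKO library lay well above the highest WT library, and the DKO libraries were spread more widely (SD 5.09 RPKM) than the WT libraries (SD 0.313). The log2 fold change was 1.01 ± 0.12 with limma-adjusted p = 0.000851 (scaled 0.74 ± 0.10, adjusted p = 0.00393), and 98.9% of the genes tested had a lower fold change. Its main transcript, Irx1-201 of 2373 bases, carried 19.0 ± 2.19 RPKM in DKO and 8.17 ± 0.134 RPKM in WT (SD, n = 3 each), without overlap. Irx1-203, a transcript of 820 bases, had 3.64 to 9.70 RPKM in DKO and 3.79 to 4.46 RPKM in WT, so the groups overlapped for this shorter form.

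Irx2, the neighbour of Irx1 in the cluster, had 12.8, 17.3 and 14.4 RPKM in DKO and 7.68, 8.19 and 8.25 RPKM in WT at E17. The groups did not overlap, and DKO library 2 was again the highest, as for Irx1. The log2 fold change was 0.80 ± 0.10 (limma-adjusted p = 0.000957, scaled 0.54 ± 0.08, adjusted p = 0.0065). Of 5 annotated transcripts, Irx2-201 carried most of the signal, with 11.7 ± 1.77 RPKM in DKO and 5.86 ± 0.301 RPKM in WT. Irx2-202 had 2.66 to 3.39 RPKM in DKO and 1.89 to 2.31 in WT, also without overlap.

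Irx5, whose mouse mutants have altered repolarization of the heart and defects of the retina, stood at 5.87, 8.36 and 6.55 RPKM in DKO and 4.48, 4.33 and 5.11 RPKM in WT at E17. All DKO libraries lay above all WT libraries, by a margin that shrank when the shift of all genes was removed. The log2 fold change was 0.48 ± 0.11 (limma-adjusted p = 0.00754) as deposited and 0.23 ± 0.10 (adjusted p = 0.169) when scaled. Irx3, the closest relative of Irx1 in IrxB and its partner in limb patterning with Irx5, had 5.56, 7.58 and 6.90 RPKM in DKO and 5.04, 5.58 and 4.99 RPKM in WT. The lowest DKO library fell within the WT range. Its log2 fold change of 0.30 ± 0.10 (limma-adjusted p = 0.0311) was close to the median of all genes, 62.3% of genes had a lower one, and it was 0.05 ± 0.08 (adjusted p = 0.701) when scaled. Without DKO library 2, DKO library 3, WT library 1 or WT library 3 the adjusted p of Irx3 as deposited was 0.0996, 0.096, 0.0796 or 0.0926.

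Irx3os, a non-coding RNA on the opposite strand that shares 1653 bases of the genome with Irx3, was listed at E17 with 0.486, 0.553 and 0.566 RPKM in DKO and 0.508, 0.531 and 0.435 RPKM in WT, below the filter and with overlapping groups. Whether the authors counted by strand is not given in the sources used here, so reads of Irx3 and Irx3os on the shared stretch may not have been told apart; Irx3os held 29 to 51 estimated reads per library and Irx3 375 to 783.

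Irx4, known as a gene of the cardiac ventricles, had 0.0934 to 0.188 RPKM in DKO and 0.0819 to 0.139 RPKM in WT at E17, an estimated 6 to 15 reads per library. Irx6, known from bipolar neurons of the retina, had 0.0296 to 0.115 RPKM in DKO and 0.0314 to 0.0887 in WT, an estimated 3 to 13 reads. Both were below the filter, and their groups overlapped. A level of 3 reads would be 0.0279 to 0.0416 RPKM for Irx4 and 0.0214 to 0.0320 for Irx6, and most libraries lay above those levels. With no filter the log2 fold changes were 0.02 ± 0.04 for Irx4 (limma-adjusted p = 0.74) and 0.01 ± 0.04 for Irx6 (adjusted p = 0.897), on a scale that understates changes at such levels. The read numbers come from the steps of the values and cover counting error only.

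At P5 the direction of the genotype difference was the opposite for Irx1 and Irx2, and all 4 members tested fell in the DKO epithelium. Irx1 was at 0.456 and Irx2 at 0.495 of the WT mean, and Irx3 and Irx5, the members of IrxB, were at 0.554 and 0.555. Of the 4 members, 4 were lower as deposited, as were 58.2% of the 11423 genes tested, and 4 passed in both scalings, as did 30.8%. The DKO libraries all lay below the WT libraries for the 4, as for 61.8% of genes. Irx6 was lower in every DKO library and stayed below the filter, and Irx4 was listed at 0 in 5 of the 6 libraries.

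Irx1 had 30.1, 27.0 and 27.4 RPKM in the DKO libraries at P5 and 67.0, 57.8 and 60.5 RPKM in the WT libraries. The highest DKO library had less than the lowest WT library by a wide margin, and Irx1 was the highest of the 6 genes in the DKO and in the WT. The log2 fold change was -1.10 ± 0.07 with limma-adjusted p = 3.47e-06 (scaled -0.88 ± 0.06, adjusted p = 1.57e-05), and 0.963% of the genes tested had a lower fold change. Irx2 had 9.57, 9.94 and 10.1 RPKM in DKO and 21.8, 18.5 and 19.7 RPKM in WT. The DKO libraries of Irx2 differed little among themselves (SD 0.289 RPKM), and the log2 fold change was -0.94 ± 0.07 (limma-adjusted p = 6.63e-06, scaled -0.73 ± 0.06).

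Irx5 stood at 15.3, 16.5 and 17.7 RPKM in DKO and 33.6, 24.7 and 30.9 RPKM in WT at P5. The WT libraries were spread more widely than the DKO libraries, and the groups lay apart. The log2 fold change was -0.80 ± 0.10 (limma-adjusted p = 9.11e-05, scaled -0.59 ± 0.10, adjusted p = 0.00114). Irx3 had 5.01, 4.60 and 3.70 RPKM in DKO and 8.52, 7.76 and 7.77 RPKM in WT, and fell by 0.74 ± 0.09 on the log2 scale (limma-adjusted p = 9.59e-05, scaled -0.54 ± 0.09, adjusted p = 0.0014). The RefSeq transcript NM_008393 carried nearly all of it, with 4.31 ± 0.691 RPKM in DKO and 7.72 ± 0.657 RPKM in WT, while NM_001253822 had at most 0.686 RPKM in any library. Of the genes tested, 4.21% had a lower fold change than Irx5 and 5.88% a lower one than Irx3.

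Irx6 had 0.321, 0.317 and 0.393 RPKM in DKO and 1.55, 0.616 and 0.903 RPKM in WT at P5, from an estimated 18 to 97 reads per library. The highest DKO library was below the lowest WT library, and WT library 1 stood apart from the other WT libraries. That library's excess was in the transcript NM_001301137, which had at most 0.0590 RPKM in DKO and 0.978 RPKM in WT with overlapping groups, while NM_022428 had 0.294 to 0.334 RPKM in DKO and 0.570 to 0.718 in WT. With no filter on low values the log2 fold change of Irx6 was -0.56 ± 0.16 (limma-adjusted p = 0.0332, scaled -0.48 ± 0.14, adjusted p = 0.0528), so it missed the threshold when scaled. Irx6 also shares 785 bases with a predicted antisense gene. Irx4 was listed at 0 in all 3 DKO libraries and at 0.0142 RPKM in 1 of the 3 WT libraries, an estimated single read, where 3 reads would be 0.0376 to 0.0692 RPKM, and no fold was formed.

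**Figure D2:**
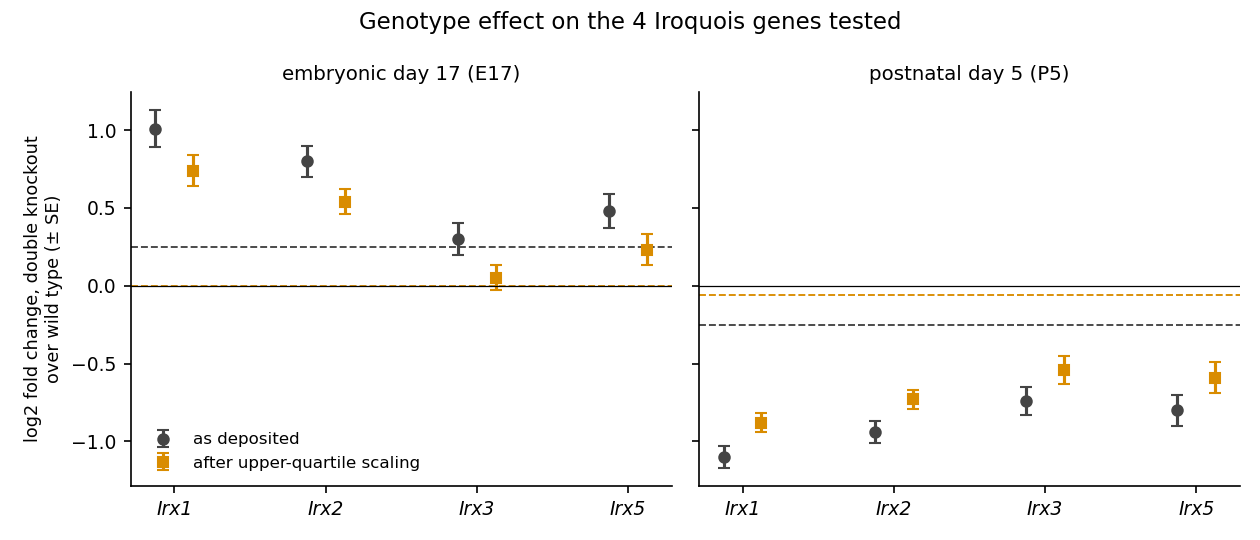
Log2 fold change, DKO over WT, of the 4 Iroquois genes tested at E17 (left) and P5 (right), with standard errors, as deposited (circles) and after upper-quartile scaling (squares); dashed lines mark the median of all genes in the same colour. The 4 genes lie between -1.10 and -0.74 at P5 as deposited, and at E17 the scaled values of Irx3 and Irx5, 0.05 and 0.23, did not pass the test.

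The genotype effect of all 4 members differed between the stages. The log2 fold change at P5 minus that at E17 was -2.12 ± 0.14 for Irx1 (adjusted p = 3.13e-08), -1.75 ± 0.12 for Irx2 (adjusted p = 1.56e-08), -1.28 ± 0.15 for Irx5 (adjusted p = 9.34e-07) and -1.04 ± 0.14 for Irx3 (adjusted p = 3.04e-06), from the limma fits of the 2 stages and adjusted over 11049 genes. Of the 4 differences, 4 were negative past the threshold, as were 78.1% of the genes as deposited, and 4 passed when scaled, as did 27.5%. The median difference over all genes was -0.52 as deposited and -0.07 when scaled. Scaled, the differences were -1.62 for Irx1, -1.27 for Irx2, -0.82 for Irx5 (adjusted p = 0.000236) and -0.59 for Irx3 (adjusted p = 0.00102). Irx1 and Irx2 were 2 of the 194 genes (1.76% of 11049) that rose at E17 and fell at P5 in both scalings, while 16 genes (0.145%) did the opposite.

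**Figure D3:**
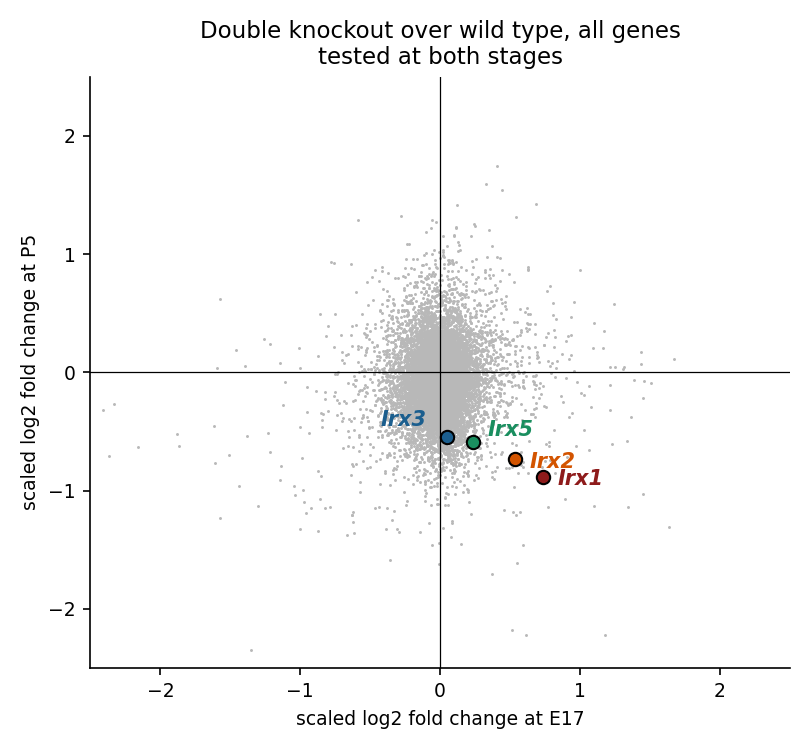
Scaled log2 fold change, DKO over WT, at E17 (horizontal) against P5 (vertical) for the 11049 genes tested at both stages (grey, 5 lie outside the axes), with the 4 Iroquois genes marked. Irx1 (0.74 and -0.88) and Irx2 (0.54 and -0.73) lie at the lower right, and Irx3 (0.05 and -0.54) lies close to the vertical axis.

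The levels themselves show where the genotypes part. In the DKO epithelium Irx1 averaged 26.2 RPKM at E17 and 28.2 RPKM at P5, and in the WT epithelium it averaged 12.3 and 61.8 RPKM. Irx2 averaged 14.9 and 9.88 RPKM in the DKO at E17 and P5, and 8.04 and 20.0 RPKM in the WT. For Irx5 the averages were 6.93 and 16.5 RPKM in the DKO and 4.64 and 29.7 RPKM in the WT, and for Irx3 they were 6.68 and 4.44 RPKM in the DKO and 5.20 and 8.02 RPKM in the WT. The tables of the stages were made with different transcript sets, Ensembl names at E17 and RefSeq accessions at P5, and were normalised separately, so these levels are set side by side and the change between stages was not tested.

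The order of the members by level also differed between the stages and not between the genotypes, apart from the order of Irx3 and Irx5 at E17. At P5 it was Irx1, Irx5, Irx2, Irx3, Irx6 and Irx4 in the DKO and in the WT, and no neighbours in that order overlapped between libraries of a group. At E17 Irx1 and Irx2 led in both genotypes without overlap, Irx5 and Irx3 followed with overlapping libraries in DKO and in WT and in opposite order of their means, and Irx4 and Irx6 overlapped at the bottom.

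The clusters were then compared as sums of their 3 genes within each library, a ratio that does not depend on how the library was scaled. At E17 IrxA summed to 33.9, 48.6 and 41.2 RPKM in DKO and 19.9, 20.5 and 21.1 RPKM in WT, and IrxB to 11.5, 16.1 and 13.5 RPKM in DKO and 9.61, 9.95 and 10.2 RPKM in WT. The log2 ratio of IrxA to IrxB was 1.57, 1.60 and 1.61 in the DKO libraries and 1.05 in each of the 3 WT libraries, a difference of 0.54. Thus IrxA held 74.7% to 75.3% of the Iroquois RPKM in DKO and 67.4% in each WT library. The DKO libraries, which differed most among themselves in the level of single genes, gave nearly the same ratio.

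At P5 the ratio moved the other way. IrxA summed to 39.7, 37.0 and 37.5 RPKM in DKO and 88.8, 76.3 and 80.2 RPKM in WT, and IrxB to 20.6, 21.5 and 21.8 RPKM in DKO and 43.7, 33.1 and 39.5 RPKM in WT. The log2 ratio was 0.95, 0.78 and 0.78 in DKO and 1.02, 1.21 and 1.02 in WT, a difference of -0.25 with groups that did not overlap, the nearest libraries standing at 0.95 in DKO and 1.02 in WT. No test was run on these ratios, since they are scores over chosen members.

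**Figure D4:**
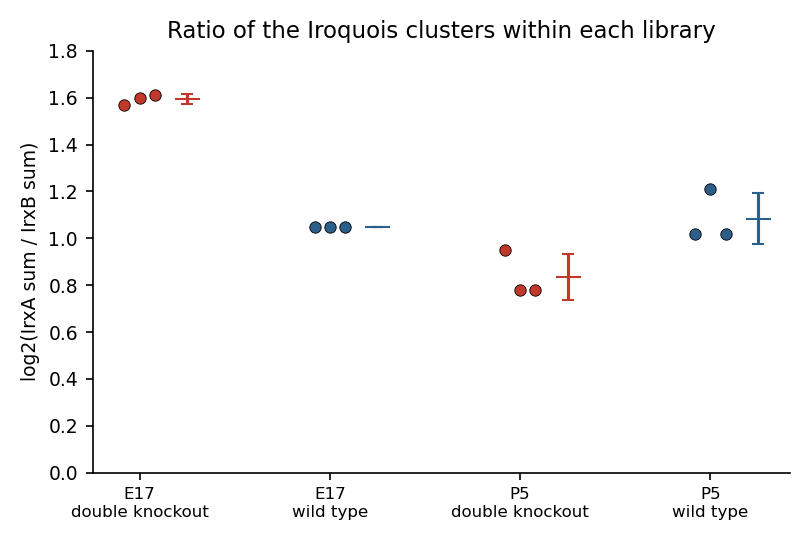
Log2 ratio of the summed RPKM of IrxA (Irx1, Irx2, Irx4) to IrxB (Irx3, Irx5, Irx6) in each library, DKO left of WT at each stage, with the mean and SD of 3 libraries beside the points. The DKO libraries lie at 1.57 to 1.61 against 1.05 in WT at E17, and at 0.78 to 0.95 against 1.02 to 1.21 in WT at P5.

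Within the clusters, the share of the leading member was read in each library, again with different transcript sets at the stages. Irx1 made up 61.8% to 64.7% of IrxA in DKO and 59.7% to 60.7% in WT at E17, and 73.0% to 75.9% in DKO and 75.4% to 75.8% in WT at P5. Irx5 made up 48.4% to 52.1% of IrxB in DKO and 43.6% to 50.1% in WT at E17, and 74.1% to 81.3% in DKO and 74.7% to 78.1% in WT at P5. The log2 ratio of Irx1 to Irx2 at E17 was 0.71, 0.85 and 0.88 in DKO and 0.65, 0.58 and 0.62 in WT, and at P5 it was 1.43 to 1.65 in DKO and 1.62 to 1.65 in WT.

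The genes that lie around the Irx genes were read next, from the nearest 5 protein-coding genes on each side of a cluster and everything annotated between the members. Nearest does not mean close for all of them: on the side of Irx1 the 5 genes lie 1116 to 2322 kb from the cluster. At E17 none of the 7 flanking genes of IrxA and none of the 8 flanking genes of IrxB that were tested rose or fell (limma, both scalings). Of all genes tested at E17, 6.61% rose and 3.07% fell. As deposited, 10 of these 15 flanking genes passed in the higher direction, as did 56.3% of all genes. At P5, 1 of the 8 flanking genes tested beside IrxA rose and 2 fell, and 4 of the 8 beside IrxB fell, while 7.35% and 30.8% of all genes rose and fell. Ube2ql1, a gene of the family of ubiquitin-conjugating enzymes that lies 2218 kb from IrxA, rose by 0.74 ± 0.10 on the log2 scale (scaled 0.92). It had 4.71 to 6.31 RPKM in DKO and 2.79 to 3.14 in WT. Mrpl36, a mitochondrial ribosomal protein gene 58.9 kb beyond Irx4, fell by 0.48 ± 0.06, and Lpcat1, a gene of lysophospholipid remodelling, fell by 0.76 ± 0.09.

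Beside IrxB, Fto, an RNA demethylase gene whose introns are known to contact Irx3, did not pass as deposited at either stage and was higher only when scaled at P5. It had 25.6, 27.1 and 25.3 RPKM in DKO and 25.0, 24.3 and 25.1 RPKM in WT at P5, with a log2 fold change of 0.06 ± 0.06 (limma-adjusted p = 0.336, scaled 0.28 ± 0.05, adjusted p = 0.00235), at the stage where Irx3 fell. Rpgrip1l, a gene of the ciliary transition zone next to Fto, fell by 0.45 ± 0.08 (scaled -0.32), Aktip by 0.73 ± 0.09 (scaled -0.52) and the chromatin remodeller Chd9 by 0.40 ± 0.08 (scaled -0.21). On the side of Irx6, Mmp2, a matrix metalloproteinase of mesenchymal cells, fell by 0.87 ± 0.10 (scaled -0.66). Lpcat2 and Capns2 had log2 fold changes of 0.10 ± 0.09 and -0.10 ± 0.13 at P5 and did not pass as deposited. When scaled, Lpcat2 was higher (0.25 ± 0.08, limma-adjusted p = 0.0285) and Capns2 did not pass (0.08 ± 0.13).

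Inside the clusters, 2 non-coding genes that begin beside an Irx gene and run away from it on the opposite strand were tested at both stages. Gm20554, whose start lies 256 bases from that of Irx2, had 1.90, 2.60 and 2.38 RPKM in DKO and 1.40, 1.52 and 1.93 RPKM in WT at E17, with overlapping groups and a log2 fold change of 0.33 ± 0.11 as deposited (scaled 0.14, limma-adjusted p = 0.406). At P5 it fell with Irx2, at 1.55, 1.57 and 1.79 RPKM in DKO and 3.37, 2.54 and 3.06 RPKM in WT (-0.59 ± 0.09, limma-adjusted p = 0.000345, scaled -0.44). Crnde, whose start lies 1505 bases from that of Irx5, had 6.05, 8.62 and 7.63 RPKM in DKO and 5.95, 6.18 and 5.11 RPKM in WT at E17 (0.31 ± 0.12, scaled 0.06). At P5 Crnde had 4.06, 3.48 and 4.94 RPKM in DKO and 6.23, 5.17 and 5.59 RPKM in WT, a log2 fold change of -0.38 ± 0.11 as deposited that missed the threshold when scaled (-0.19, limma-adjusted p = 0.136). Gm20554 and Crnde overlap no base of Irx2 or Irx5 in the annotation.

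**Figure D5:**
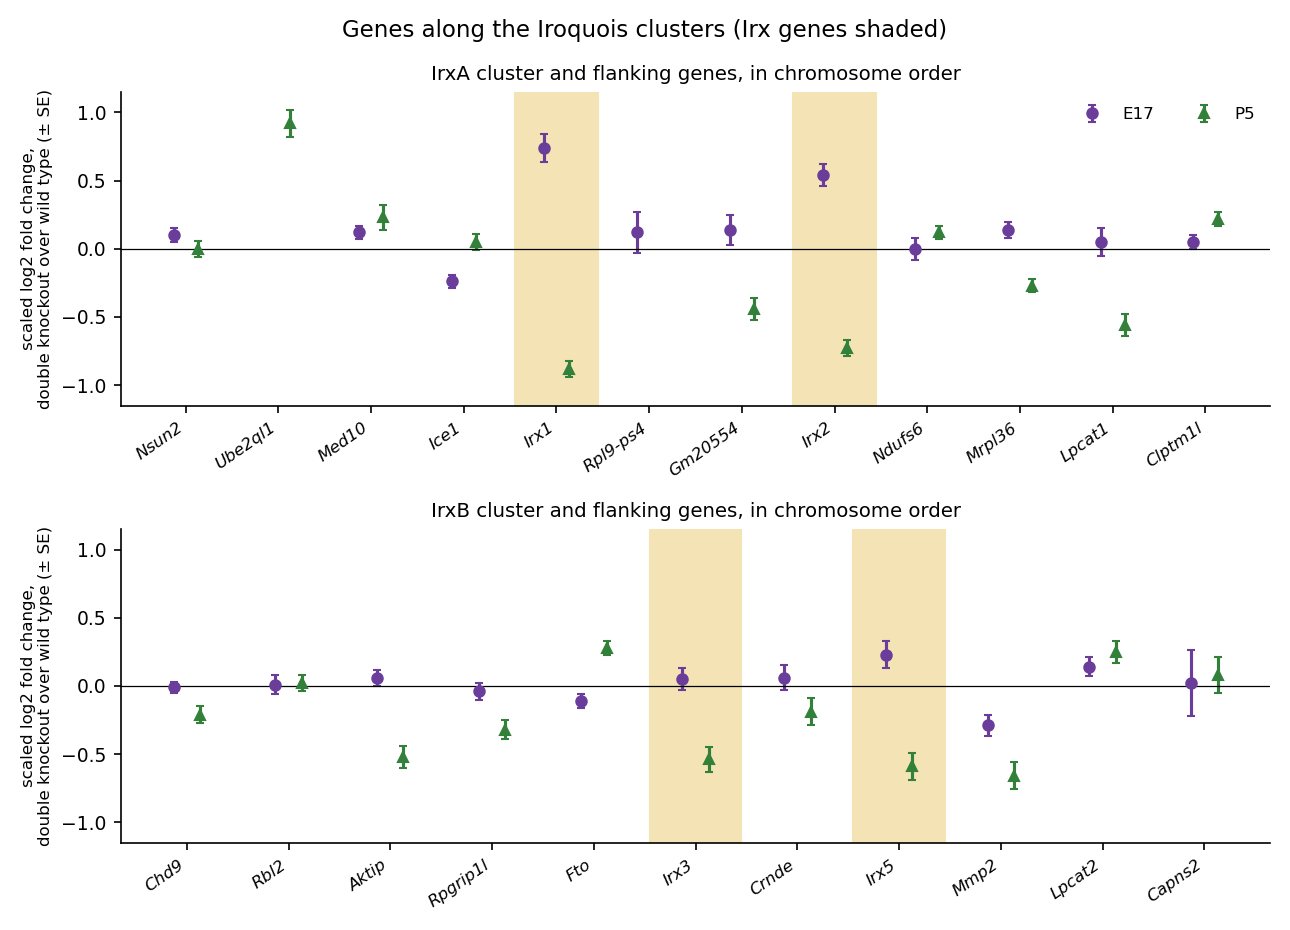
Scaled log2 fold change, DKO over WT, with standard errors for the tested genes of IrxA (top) and IrxB (bottom) and their neighbours in chromosome order at E17 (circles) and P5 (triangles); the horizontal positions are evenly spaced and not to genomic scale. At E17 Irx1 (0.74) and Irx2 (0.54) stand above their neighbours, which lie between -0.24 and 0.14 in the IrxA panel.

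The other TALE homeobox genes, the class to which Iroquois genes belong, were read as a list of 12. At E17 all 12 were tested, and 0 rose and 1 fell in both scalings, beside 6.61% of all genes that rose and 3.07% that fell (5 were higher and 1 lower at limma-adjusted p under 0.05 as deposited), and the median log2 fold change of 0.15 lay below that of all genes. The member that fell was Meis2, a cofactor of Hox and Pbx proteins, with 5.78, 5.51 and 6.85 RPKM in DKO and 10.5, 9.45 and 10.1 RPKM in WT (-0.65 ± 0.08, limma-adjusted p = 0.00114, scaled -0.90). At P5, 8 of the 12 were tested, 0 rose and 1, Pbx2, fell (-0.39 ± 0.07, scaled -0.18), with a median of -0.18, beside 7.35% of all genes that rose, 30.8% that fell and a median of -0.25. The remaining TALE genes tested at P5 had scaled log2 fold changes from -0.33 for Meis3 to 0.33 for Tgif1, a repressor of TGF-beta signalling.

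Of 11 genes listed from earlier reports as partners or targets of Iroquois proteins, 8 were tested at E17, where 2 rose and 1 fell, and 6 at P5, where 0 rose and 1 fell. Of all genes, 6.61% rose and 3.07% fell at E17, and 7.35% rose and 30.8% fell at P5. Gja1, the gap junction gene that Irx3 represses in the mouse heart, had 194.5, 209.9 and 208.8 RPKM in DKO and 100.7, 104.3 and 109.0 RPKM in WT at E17, and rose by 0.96 ± 0.07 (limma-adjusted p = 0.000116, scaled 0.67). Sox9 rose by 0.96 ± 0.10 (scaled 0.70), and Sox2, a gene of dental epithelial progenitors, fell by 0.46 ± 0.07 (scaled -0.73). At P5 Gja1 had 556 ± 23.5 RPKM in DKO and 688 ± 58.3 in WT (SD, n = 3 each), with a log2 fold change of -0.30 that was -0.08 when scaled, and Sox9 one of -0.09. Cxcl12, the chemokine gene that Irx5 represses in frog embryos, had 4.23 to 6.42 RPKM in DKO and 7.53 to 10.1 RPKM in WT at P5 and fell by 0.57 ± 0.14 (limma-adjusted p = 0.0036, scaled -0.38). Trps1 and Gata3, zinc-finger partners of Irx5, had levels of 2.21 ± 0.234 RPKM in DKO and 2.13 ± 0.447 in WT (Trps1, P5) and at most 0.483 RPKM in any library (Gata3).

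Genes whose values followed the Irx genes most closely were ranked by Pearson correlation of log2(RPKM + 1), centred within each stage, over the 12 libraries and among 11049 genes. The points share the genotype groups and the library scaling, so the coefficients describe likeness only. For Irx1 the 3 highest were Ankrd6 (0.994), Irx2 (0.993) and Trp73 (0.992), and for Irx2 they were G3bp2 (0.995), Irx1 (0.993) and Gmcl1 (0.993). Irx3 was most like Pelp1 (0.990), Arhgap11a (0.983) and Acsf2 (0.982), and Irx5 most like Bcl11a (0.987), Arhgef18 (0.987) and Igsf9 (0.986). Irx1 and Irx2 thus ranked second in each other's lists, while Irx3 ranked 2197th for Irx1 (0.912) and Irx5 2094th for Irx3 (0.880). In the list of Irx5, Irx2 ranked 62nd (0.962) and Irx1 339th (0.940), ahead of Irx3 at 2145th. Trp73, the p53 relative, had 6.12, 8.32 and 6.92 RPKM in DKO and 3.81, 3.84 and 3.97 RPKM in WT at E17 and 9.70, 8.93 and 9.06 RPKM in DKO and 16.8, 14.8 and 14.2 RPKM in WT at P5. Ankrd6, which acts in planar polarity, rose at E17 by 0.63 ± 0.09 (scaled 0.37) and fell at P5 by 0.64 ± 0.06 (scaled -0.43).

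Markers of the layers of the enamel organ and of neighbouring tissues also moved with genotype. In bulk tissue, fewer cells of a type and less RNA per cell cannot be told apart. All 10 epithelial identity markers reached 1 RPKM in 3 or more of the 6 libraries at each stage, so the labelled tissue carries its markers. Their summed levels were 2729 to 2846 RPKM in DKO and 2343 to 2761 in WT at E17, and 4345 to 4432 in DKO and 4247 to 5025 in WT at P5, and the sums overlap. The 10 markers of the upper layers of the enamel organ summed to 918 to 1143 RPKM in DKO and 690.2 to 730 in WT at E17, where 4 rose and 0 fell, and to 1289 to 1376 in DKO and 1518 to 1907 in WT at P5, where 1 rose and 0 fell. Their median log2 fold changes, 0.47 at E17 and -0.33 at P5, stood beside 0.25 and -0.25 for all genes, and were 0.21 and -0.12 when scaled, beside 0.00 and -0.06. These counts and those of the other lists are to be read against the 6.61% of all genes that rose and 3.07% that fell at E17, and the 7.35% that rose and 30.8% that fell at P5. Vwde rose by 1.46 ± 0.07 and Krt17, the most abundant of the list, by 0.61 ± 0.10 at E17.

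Of the 9 markers of the inner enamel epithelium and ameloblasts tested at each stage, 7 rose at E17, among them Shh, Sp6 and Msx2, and 1 fell. At P5, 3 rose and 1 fell, where 7.35% and 30.8% of all genes rose and fell. The marker that fell at P5 was Shh, at means of 46.1 RPKM in DKO and 113 in WT (-1.25 ± 0.13, scaled -1.03). At E17 Shh had risen by 1.73 ± 0.11 (scaled 1.45). The 10 genes of that list summed to 208 to 232 RPKM in DKO and 80.3 to 86.0 in WT at E17, and to 196695 to 235495 RPKM in DKO and 107658 to 128592 in WT at P5, mostly of Amelx, the amelogenin gene. The 16 mesenchyme markers summed to 2986 to 3185 RPKM in DKO and 4585 to 5041 in WT at E17 (1 rose, 4 fell), and to 928 to 1323 in DKO and 2144 to 2333 in WT at P5 (0 rose, 10 fell, where 30.8% of all genes fell). The collagen genes Col1a1 and Col1a2 held much of the E17 sums, with means of 896 and 643 RPKM in DKO and 1975 and 1229 in WT. The median log2 fold change of the 16 at E17 was -0.01 (scaled -0.29), beside 0.25 (scaled 0.00) for all genes. All 16 reached 1 RPKM in 3 or more of the 6 libraries at each stage, so none of the defining mesenchyme genes was absent from the dissected epithelium. Odontoblast and bone markers summed to 253 to 455 RPKM in DKO and 483 to 581 in WT at E17, and to 318 to 335 in DKO and 657 to 903 in WT at P5, where 7 of 7 tested fell. Red cell markers, at E17 10412 to 21298 RPKM in DKO and 5771 to 7229 in WT, and at P5 517 to 1186 in DKO and 1349 to 1480 in WT, had the same directions as Irx1 at both stages. These directions were not particular to red cells. Among other lists, the sums of the upper layers, of immune cells and of neurons and glia shared them, as did the median log2 fold change of all genes (0.25 and -0.25). The cornifying epithelium rose at E17 in 5 of 9 genes tested. The part of these cell types in the Irx values was not tested.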

How the data were processed

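RNA sequencing of molar epithelium gave 12 libraries used here, 3 per genotype at E17 and P5. Per the labels' protocols, tooth germs were treated with dispase, and 1 µg of RNA (integrity number over 7) was depleted of ribosomal RNA and made into libraries with an NEBNext Ultra II kit. The authors used Partek (no version given) on mm10, per the submitters' processing notes. Per the file headers, libraries are named after sorted alignment files with duplicates marked. Not given in the sources used here are the aligner, annotation release, use of strand and removal of duplicates.

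The deposited values are RPKM per transcript, a unit that no source states. It was read from the values, of which 87.4% to 88.5% (E17) and 76.3% to 78.9% (P5) of low ones were whole multiples of 1 read within 0.1. The steps gave 27.9 to 41.5 (E17) and 16.7 to 30.9 (P5) M mapped reads, from which reads per gene were estimated. RPKM were summed per symbol. Genes with at least 1 RPKM in at least 3 of 6 libraries were fitted with limma 3.58.1 (trend) in R 4.3.3 on log2(RPKM + 1), two-sided and per stage, without the replicate number as a block. The difference between stages was set against the standard errors of both fits, with Satterthwaite's degrees of freedom. The fits were tested on simulated data. Figures and tables were made with Python 3.11.15.

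The genes named were all 6 Irx genes and their transcripts, the targeted genes, the genes between cluster members and the 5 nearest protein-coding genes on each side, from each list the 4 or fewer tested members of smallest p at a stage, any member of the TALE and partner lists, and for each tested Irx gene the 3 most alike. The members and lists were chosen with earlier results of these data known. Alternatives were upper-quartile and median-of-ratios scaling, no filter, a pseudocount of 0.1, no trend, a minimum absolute log2 fold change of 1, the transcript with the highest mean, the replicate block and leaving out each library. The remaining lists described endothelium, skeletal muscle, immune cells, neurons and glia, and salivary gland.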

Additional observations from a re-analysis of the deposited data

Results flagged for a closer look

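The genotype effect of 4 Iroquois genes differed between E17 and P5, by a test of the difference of the log2 fold changes (limma fits, adjusted over 11049 genes). As deposited, the P5 value minus the E17 value was -2.12 for Irx1, -1.75 for Irx2, -1.28 for Irx5 and -1.04 for Irx3. When scaled, it was -1.62, -1.27, -0.82 and -0.59 in the same order. In every DKO library Irx1, Irx2 and Irx5 were above every WT library at E17 and below every WT library at P5, and Irx3 was below every WT library at P5 with overlapping groups at E17. Of all genes tested, 60.9% lay above in every DKO library at E17 and 61.8% lay below at P5. At E17 neither Irx5 (scaled 0.23, limma-adjusted p = 0.169) nor Irx3 (scaled 0.05, limma-adjusted p = 0.701) passed after scaling. Over all genes tested at both stages the median difference was -0.52, and 78.1% had a negative difference past the threshold.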

How the results depend on the processing

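As deposited, 4 Irx genes were called at E17. The count was 2 (Irx1 and Irx2) with upper-quartile scaling, median-of-ratios scaling, no filter, no filter with upper-quartile scaling and the replicate block with upper-quartile scaling, and 1 (Irx1) with a minimum absolute log2 fold change of 1. Scaling removed the shift shared by most genes; the cause of the loss without a filter was not tested. Leaving out each library in turn gave 3 or 4 calls as deposited and 2 in each case with upper-quartile scaling, as with all libraries. Irx3 at E17 turned from 0.30 to -0.01 without DKO library 2 under upper-quartile scaling, and Irx1 and Irx2 passed in all 9 alternatives other than that minimum and in all 12 fits with a library left out. At P5 the count of 4 was 1 (Irx1) with that minimum, 5 without a filter (Irx6 added) and 4 in every fit with a library left out. The difference between stages was past the threshold for 4 genes in the alternatives run, and for 5 without a filter. The difference of the log2 ratio of IrxA to IrxB at E17 was 0.56 with the transcript of highest mean (0.53 to 0.55 with a library left out), and at P5 it was -0.26 (-0.30 to -0.18).

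Same-numbered libraries did not deviate together (correlations of -0.022, 0.22 and -0.021 at E17 and -0.22, -0.072 and 0.044 at P5), so the replicate numbers were not taken as pairs; with the replicate block, 4 genes were called at E17, 4 at P5 and 4 for the difference. Both combined settings with upper-quartile scaling for the difference, the unfiltered scaled fit and the alternatives of the cluster ratio were chosen after seeing the data. Few reads lie behind Irx4 at both stages and Irx6 at E17, at most 15 and 13 per library by estimate. The unit, the reads and the depth were inferred from the values.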

Other observations

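The remaining marker lists gave further values that move with genotype. Immune cell markers summed to 117 to 127 RPKM in DKO and 87.7 to 99.5 in WT at E17 (0 of 7 tested rose in both scalings), and to 28.3 to 36.0 RPKM in DKO and 45.8 to 57.4 in WT at P5, where 3 of 6 tested and 30.8% of all genes fell, among them Csf1r, the macrophage receptor gene. Markers of neurons and glia summed to 36.0 to 38.0 RPKM in DKO and 13.4 to 14.9 in WT at E17, and to 34.2 to 45.0 in DKO and 70.7 to 115 in WT at P5. Endothelial markers overlapped at E17, at 84.3 to 87.4 RPKM in DKO and 79.0 to 95.1 in WT, and at P5 they summed to 37.2 to 49.1 in DKO and 54.8 to 59.2 in WT, where 2 of 8 tested fell, beside the same 30.8%.

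Skeletal muscle markers summed to 664 to 772 RPKM in DKO and 665 to 1618 in WT at E17, and the sums overlapped. Of these 10 markers 5 fell at E17, beside 3.07% of all genes. At P5 they summed to 37.5 RPKM in DKO library 3 alone, against 4.19 and 3.44 in the other DKO libraries and 2.92 to 4.22 in WT. Salivary gland markers stayed at or below 0.355 RPKM in DKO and 0.290 in WT at both stages. Cornifying epithelium markers summed to 2019 to 4057 RPKM in DKO and 1737 to 2565 in WT at E17, and to 29.5 to 32.0 in DKO and 31.2 to 42.0 in WT at P5. Their part in the Irx values was not tested.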
